A study of Arabidopsis thaliana with 5 samples.

Results

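Histone genes were analysed in RNA of INTACT-purified endosperm nuclei of *Arabidopsis thaliana*. The set holds 50 of the 33602 genes of the table and was chosen by gene identity, as the genes encoding H1 (3 genes), H2A (13), H2B (11), H3 (15) and H4 (8) with their variants. Seeds came from reciprocal crosses of the accessions Columbia (Col) and Landsberg (L*er*) and were harvested at 4 days after pollination (DAP), giving 2 Col × L*er* libraries and 3 L*er* × Col libraries, the mother written first. In Col × L*er*, the mother was the INT line in the male-sterile *dde2* background and the father L*er* wild type. In L*er* × Col, the mother was a male-sterile *pistillata* mutant in L*er* and the father the INT line in Col. The INT line carries a nuclear envelope tag and a biotin ligase, both under the *PHE1* promoter, so that tagged nuclei can be captured. The tag is thus inherited from the mother in one cross and from the father in the other, and the cross direction cannot be told apart from the mother's mutation. Libraries were named by the replicate numbers of the table's columns, which are 2 and 3 for Col × L*er* and 1, 2 and 3 for L*er* × Col, and values of a cross are given in this order. By the study's methods, the first replicates were left out after an estimate of contamination, while the same methods name 3 L*er* × Col replicates among the libraries that were merged. The table holds replicate 1 of L*er* × Col, and the main results are also given without it. Values are RPKM, which divide the reads of a gene by its length and by the sequencing depth, so levels of genes can be compared per length.

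Histones H2A, H2B, H3 and H4 form the core around which DNA is wrapped, and H1 binds the linker DNA between these cores. Plants carry several genes for each histone, and their histone mRNAs are polyadenylated, unlike most replication-dependent histone mRNAs of animals. Replicative forms such as H3.1 are made mainly in S phase and are deposited behind the replication fork. Variants such as H3.3, H2A.Z, H2A.W and CENH3 are deposited at particular places. H3.3 is placed at transcribed genes, H2A.Z near transcription starts and over responsive genes, H2A.W in heterochromatin and CENH3 at centromeres. H2A.X is the form phosphorylated at DNA breaks. At 4 DAP the *Arabidopsis* endosperm is a syncytium of nuclei that have divided without cytokinesis.

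H3.1 and H3.3 are shown first, since the ratio between their genes is one of the results given further on. The 5 H3.1 genes (AT5G65360, AT1G09200, AT3G27360, AT5G10400 and AT5G10390) encode the same protein by the RefSeq annotation of the TAIR10.1 genome. The 3 H3.3 genes (AT4G40030, AT4G40040 and AT5G10980) also share 1 protein of the same length, which differs from H3.1 at 4 residues (97.1% identity). With residues numbered after the first methionine and the H3.1 residue written first, these are A31T, F41Y, S87H and A90L. The coding bases of residues 27 to 45 and 84 to 93 are given for the gene with the highest mean level of each class, AT1G09200 (H3.1, chromosome 1) and AT5G10980 (H3.3, chromosome 5), with the codons of the differing residues in capitals.
AT1G09200, residues 27 to 45: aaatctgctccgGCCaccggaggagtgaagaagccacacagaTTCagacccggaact
AT5G10980, residues 27 to 45: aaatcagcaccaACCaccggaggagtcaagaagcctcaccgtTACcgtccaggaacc
AT1G09200, residues 84 to 93: ttccagagcAGTgccgtcGCCgctcttcag
AT5G10980, residues 84 to 93: tttcagagtCACgcggtgTTAgctcttcaa
Bases outside the capitals differ as well, so reads of H3.1 and H3.3 genes are separable at the level of bases. Among the H3.1 genes, the longest sharing was between AT3G27360 and AT5G10400, at 1.28 and 1.36% of their exon windows of 50 bases.

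The promoters of the set were searched for motifs known from plant histone genes, on both strands of the 250 bases before each annotated gene start. The octamer CGCGGATC, known as a promoter element of plant histone genes, was found in 10 of the 50 promoters, against 37 of 27443 promoters of the annotation (0.135%). The hexamer ACGTCA was found in 12 of the 50, against 7.69% of all promoters, and 8 of these 12 were among the 11 H2B genes. The E2F motifs TTTCCCGC, TTTGGCGC or TTTCGCGC were found in 2 of the 50, against 1.13% of all promoters, in the H4 genes AT3G45930 and AT3G46320. These 2 promoters are nearly the same sequence, with the motif at −237 in both, so the matches are not independent. Matches of different motifs shared bases in 0 of the 50 promoters, and a match is a description of the letters only. The promoters of the leading replicative H2A, H3.1 and H3.3 genes are printed in transcription direction, ending at the base before the annotated gene start, with motifs in capitals.
HTA10 (AT1G51060), chr1:18926561-18926810, plus strand, octamers starting at −74 and −10: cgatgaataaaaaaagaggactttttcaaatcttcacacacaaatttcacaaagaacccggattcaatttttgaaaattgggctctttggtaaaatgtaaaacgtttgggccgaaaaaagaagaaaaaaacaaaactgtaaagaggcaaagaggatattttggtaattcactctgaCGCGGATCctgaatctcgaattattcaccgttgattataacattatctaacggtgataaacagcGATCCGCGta
AT1G09200, chr1:2972335-2972584, minus strand, octamers starting at −90 and −19: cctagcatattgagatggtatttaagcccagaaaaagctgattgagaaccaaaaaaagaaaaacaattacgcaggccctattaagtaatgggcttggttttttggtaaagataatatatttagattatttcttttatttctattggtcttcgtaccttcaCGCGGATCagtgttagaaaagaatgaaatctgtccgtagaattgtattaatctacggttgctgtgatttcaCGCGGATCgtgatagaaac
AT5G10980, chr5:3473571-3473820, minus strand, hexamers starting at −61 and −6: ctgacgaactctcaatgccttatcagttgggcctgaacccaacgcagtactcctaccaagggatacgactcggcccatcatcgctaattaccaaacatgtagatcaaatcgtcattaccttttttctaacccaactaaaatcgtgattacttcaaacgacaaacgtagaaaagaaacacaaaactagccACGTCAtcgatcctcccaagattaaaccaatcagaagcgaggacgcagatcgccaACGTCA
The remaining octamers were in the promoters of the H1 gene AT1G06760, *HTA13*, *HTA6*, the H3.1 genes AT5G65360 and AT5G10400, the H3.3 gene AT4G40040 and the H4 genes AT1G07660 and AT5G59690. No octamer was found in the promoters of the 11 H2B and 4 H2A.Z genes.

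The depth of the libraries, recovered from the steps of low values of tRNA genes, was 12.5 to 28.5 M reads. The libraries differed in composition. Genes listed at 0 numbered 647 to 12393, with the most in the library numbered 2 of Col × L*er*. Replicate 1 of L*er* × Col stood apart from the other libraries (Pearson's r across 25579 genes of 0.63 to 0.72 on log2(RPKM + 1), 0.86 to 0.95 for the other pairs of the same cross or number). The 2 libraries numbered 3 were the most alike. Of the endosperm markers, *PHE1*, whose promoter drives the tag, had 29.7 to 51.0 RPKM and 10 of the 11 listed genes reached 1 RPKM in every library, the exception being *IKU2*, with 0.85 and 0 RPKM in the libraries numbered 2. The 9 seed coat markers summed to 31.9 and 174 RPKM in Col × L*er* and to 173, 22.4 and 205 RPKM in L*er* × Col, with *TT16* listed at 0 in both libraries numbered 2 and *TTG2* in that of Col × L*er*. The 5 photosynthesis genes summed to 1533 and 3787 RPKM in Col × L*er* and to 1660, 465 and 2893 RPKM in L*er* × Col, none of them at 0. Of the embryo markers, *STM* was listed at 0 in replicate 2 of Col × L*er* and *WOX2* in that of L*er* × Col. *STM*, *PLT1*, *DRN* and *WOX2* were highest in replicate 1 of L*er* × Col, at 39.5, 22.6, 10.7 and 4.00 RPKM. Elsewhere they reached at most 11.9, 2.22, 2.26 and 1.41 RPKM. *WOX8* went the other way, with 24.2 RPKM in that replicate and 119 RPKM in replicate 3 of Col × L*er*. RNA of the seed coat, embryo and photosynthesis genes was thus detected, and whether it came from other tissues was not tested. The seed coat and photosynthesis sums were lowest in the 2 libraries numbered 2. The part of other tissues in the histone values was not tested.

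**Figure D1:**
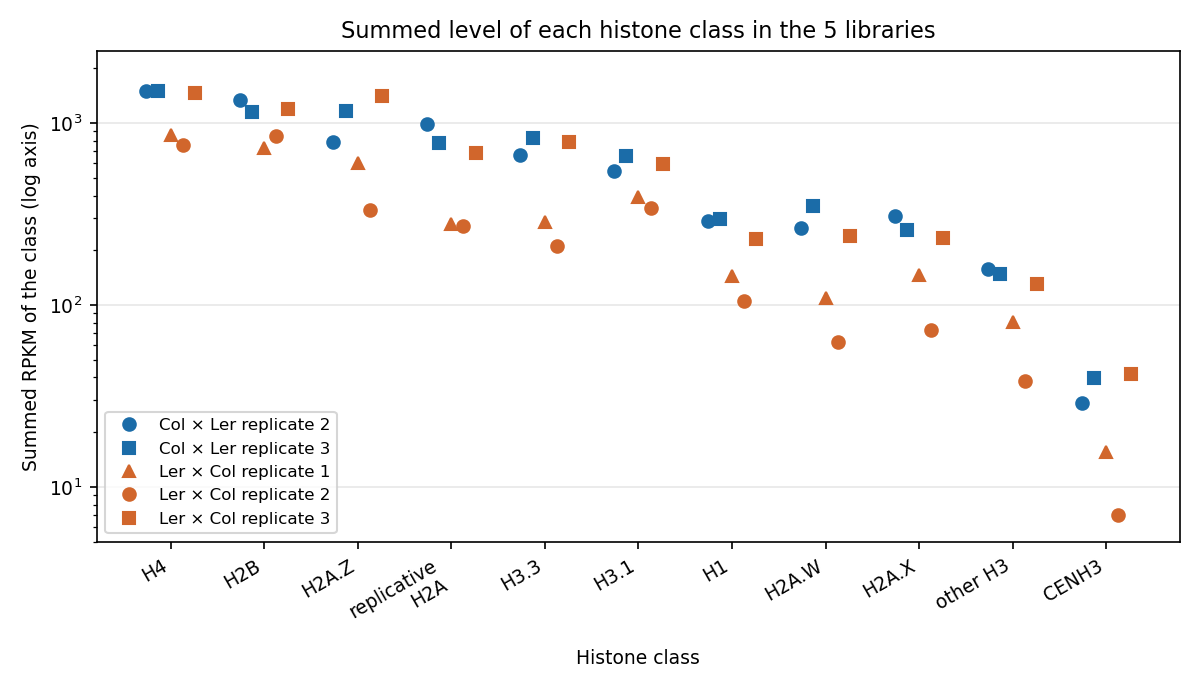
Summed RPKM of each histone class (y axis, log scale) in the 5 libraries, classes ordered by their mean, 1 point per library, with Col × L*er* in blue and L*er* × Col in orange and a symbol for each replicate number. Replicates 1 and 2 of L*er* × Col lie below the other 3 libraries in all 11 classes, while replicate 3 of L*er* × Col lies near the Col × L*er* libraries.

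Histone genes were among the highly expressed genes of these nuclei. Of the 49 protein-coding members, 32 lay above the 90th percentile of protein-coding genes in every library, and 39 of the 50 had at least 10 RPKM in every library, against 17.1% of protein-coding genes. Together the set took 0.92 and 1.06% of summed RPKM in Col × L*er*, and 0.579, 0.539 and 1.04% in L*er* × Col. The corresponding sums were 6870 and 7186 RPKM in Col × L*er*, and 3655, 3045 and 7022 RPKM in L*er* × Col. Replicate 3 of L*er* × Col was at the level of Col × L*er*, and the crosses overlapped. Replicate 2 of L*er* × Col held the lowest value of 35 members. In bulk nuclei, fewer nuclei with high expression and less RNA per nucleus cannot be told apart. The order of members was much alike between libraries, with Spearman's rho over the 49 tested members of 0.874 to 0.967 for the 10 pairs of libraries, against 0.567 to 0.945 over all 25579 genes tested. These coefficients are across genes, which are not independent replicates.

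**Figure D2:**
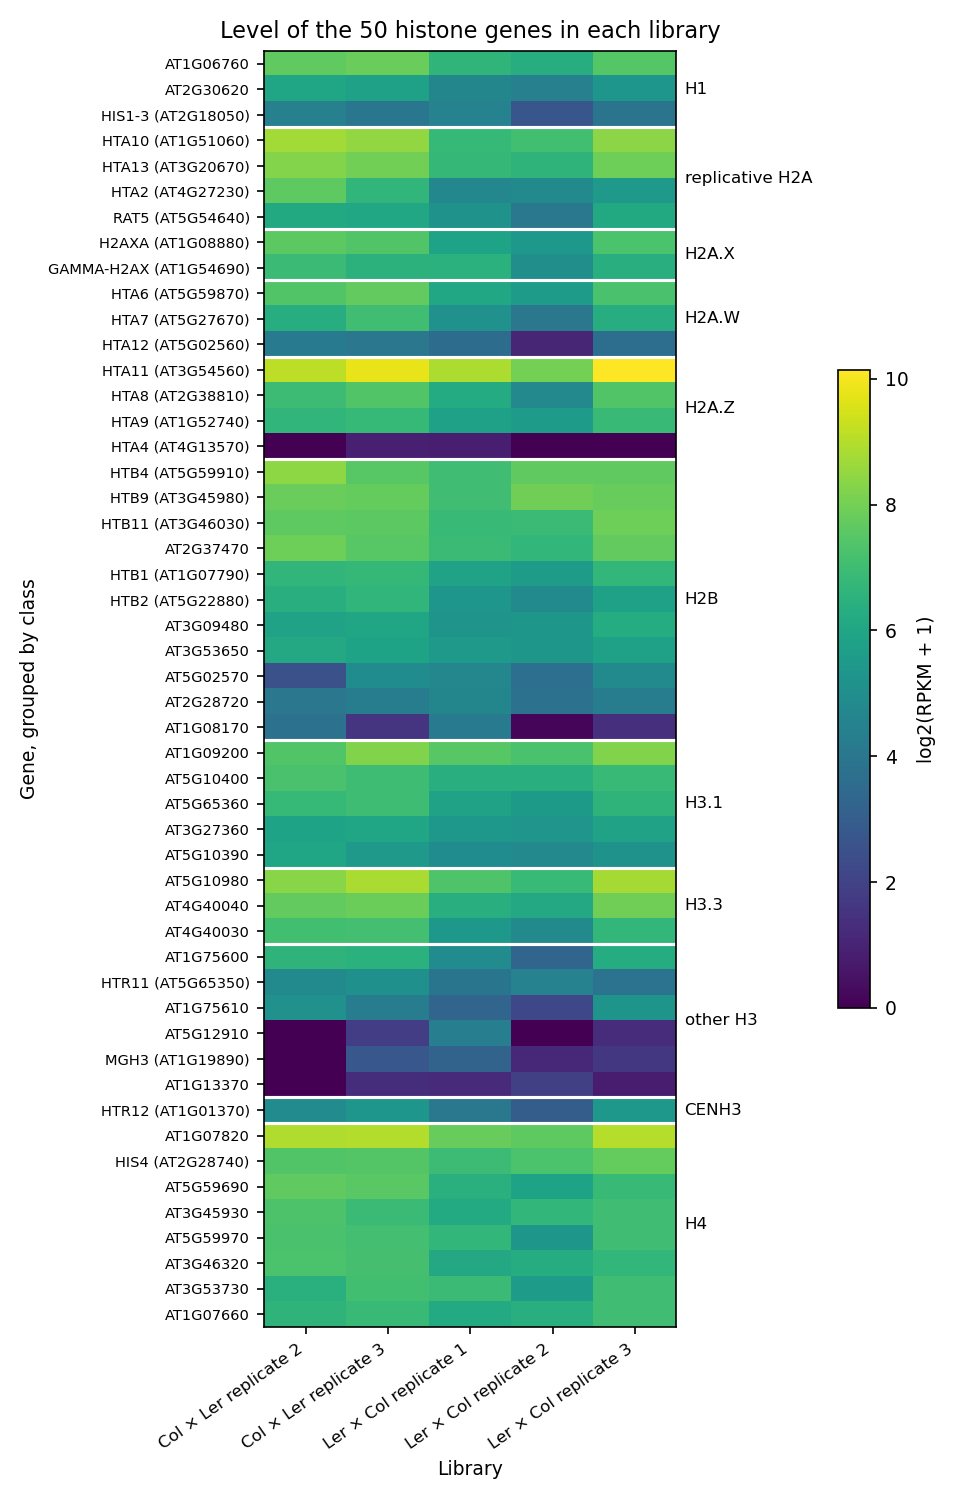
Level of each of the 50 histone genes as log2(RPKM + 1) (colour) in each library (columns), grouped by class and ordered by mean level within a class. *HTA11* is the brightest row, with 259 to 1128 RPKM, and *HTA4*, AT5G12910, *MGH3* and AT1G13370 hold the zeros.

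H2A.Z had the gene with the highest level of the set. *HTA11* (AT3G54560), an H2A.Z gene, had 560 and 883 RPKM in Col × L*er* and 474, 259 and 1128 RPKM in L*er* × Col. It ranked at position 78 of the protein-coding genes by mean RPKM, and its crosses overlapped, with both the lowest and the highest value in L*er* × Col. *HTA8* and *HTA9* had means of 111 and 85.9 RPKM over the 5 libraries. The fourth gene, *HTA4* (AT4G13570), had 0 and 0.842 RPKM in Col × L*er* and 0.825, 0 and 0 RPKM in L*er* × Col. At 1 RPKM in no library, *HTA4* was the only member that was not tested. *HTA11* took most of the class sum, which was 785 and 1164 RPKM in Col × L*er* and 603, 333 and 1409 RPKM in L*er* × Col.

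Replicative H2A was led by *HTA10* (AT1G51060), with 420 and 359 RPKM in Col × L*er* and 111, 133 and 332 RPKM in L*er* × Col. Both Col × L*er* values were above the L*er* × Col values, with replicate 3 of L*er* × Col just under the lower of them. *HTA2* (AT4G27230) had 194 and 101 RPKM in Col × L*er* and 25.1, 27.7 and 44.4 RPKM in L*er* × Col, the largest log2 fold change of the set. *HTA13* averaged 200 RPKM and also separated by cross, and *RAT5* (*HTA1*, AT5G54640), named for a mutant resistant to *Agrobacterium* transformation, averaged 52.0 RPKM and did not. The 4 genes summed to 992 and 780 RPKM in Col × L*er* and to 279, 273 and 685 RPKM in L*er* × Col.

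The damage-linked H2A.X genes end in SQEF or SQEY in both of 2 proteins, the motif that is phosphorylated. *H2AXA* (AT1G08880) had 189 and 168 RPKM in Col × L*er* and 58.5, 41.7 and 153 RPKM in L*er* × Col, and the second gene, *GAMMA-H2AX* (AT1G54690), averaged 81.9 RPKM. For both, the Col × L*er* libraries were above all L*er* × Col libraries. The 3 H2A.W proteins carry SPKK in their last 20 residues, the tail motif of this heterochromatin variant, which was in no other H2A of the set. *HTA6* (AT5G59870) led H2A.W with 169 and 205 RPKM in Col × L*er* and 64.7, 46.6 and 148 RPKM in L*er* × Col, the groups again not overlapping. *HTA7* (AT5G27670) had 78.9 and 129 RPKM in Col × L*er* and 33.6, 15.1 and 79.6 RPKM in L*er* × Col, so that replicate 3 of L*er* × Col just passed replicate 2 of Col × L*er*. *HTA12* (AT5G02560), with 1.13 to 16.8 RPKM, contains the H2B gene AT5G02570 on the other strand, all of whose 522 bases lie within it. No source used here states a stranded library, so the reads of this pair cannot be told apart. Other members also overlap a gene on the other strand, and their values may hold its reads. The largest shares of gene length were 38.3% for AT1G06760, 34.3% for *HTB9*, 26.6% for *GAMMA-H2AX* and 25.3% for AT5G12910. AT5G02570 had 4.79 and 29.5 RPKM in Col × L*er* and 25.0, 12.0 and 27.6 RPKM in L*er* × Col, with its lowest and its highest value both in Col × L*er*.

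H4 and H2B had the highest class sums by the mean over libraries. All 8 H4 genes encode the same protein of 103 residues. AT1G07820 led with 491 and 506 RPKM in Col × L*er* and 219, 194 and 508 RPKM in L*er* × Col, of which the highest was in L*er* × Col. The other H4 genes had means of 99.5 to 166 RPKM, with *HIS4* (AT2G28740) at 166 RPKM. Shares of their exon windows of 50 bases that another H4 gene also holds reached 27.9% (AT3G46320), so single H4 values are uncertain where the authors' counting split such reads, and the class sum is not affected by a split within it. The sums were 1498 and 1509 RPKM in Col × L*er* and 862, 755 and 1462 RPKM in L*er* × Col. The H2B genes summed to 1339 and 1153 RPKM in Col × L*er* and to 733, 847 and 1201 RPKM in L*er* × Col. *HTB4* (AT5G59910) led them with 339 and 183 RPKM in Col × L*er* and 128, 202 and 201 RPKM in L*er* × Col, and its crosses overlapped. *HTB9*, *HTB11* and AT2G37470 averaged 206, 172 and 169 RPKM. AT1G08170, an H2B gene with a coding region longer than in the other H2B genes, had 13.3 and 1.90 RPKM in Col × L*er* and 16.7, 0.134 and 1.63 RPKM in L*er* × Col. By depth and exon length this is an estimated 156, 47.4, 400, 2.56 and 43.5 reads, so the lowest value rests on a few reads, and the gene varied more between libraries of 1 cross than between the crosses. All 11 H2B and all 5 H3.1 genes lack introns, as do 5 of the 8 H4 genes, whereas all H1, H2A, H3.3 and CENH3 genes of the set have them.

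Of the H3.1 genes, AT1G09200 was highest, with 168 and 298 RPKM in Col × L*er* and 183, 147 and 295 RPKM in L*er* × Col. Its 2 libraries numbered 3 were alike and above the other 3. The remaining H3.1 genes had means of 39.5 to 111 RPKM, and each of these 4 separated by cross. AT3G27360 overlaps the gene AT3G27380 on the same strand by 328 bases, and its values may hold reads of that gene. AT5G10980 led H3.3, with 325 and 462 RPKM in Col × L*er* and 161, 116 and 440 RPKM in L*er* × Col, replicate 3 of L*er* × Col lying between the Col × L*er* values. AT4G40030 had 134 and 138 RPKM in Col × L*er* and 41.7, 27.2 and 104 RPKM in L*er* × Col, with no overlap. Its neighbour AT4G40040 lies 42 bases away on the same strand and averaged 167 RPKM.

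The remaining H3 genes ranged from near 0 to moderate levels. AT1G75600, whose protein shares A31T, F41Y, S87H and A90L with H3.3 and is 93.4% identical to H3.1, had 97.0 and 87.1 RPKM in Col × L*er* and 28.5, 8.90 and 75.8 RPKM in L*er* × Col. The groups did not overlap. The transcribed pseudogene AT1G75610 lies 1118 bases downstream and shares 22.0% of its windows of 50 bases with AT1G75600, so its 3.62 to 37.4 RPKM are uncertain. AT1G75600 in turn shares 14.5% of its windows with the pseudogene, so its values carry the same limit. *HTR11* (AT5G65350) averaged 22.0 RPKM, was higher in both Col × L*er* libraries than in all of L*er* × Col, and lies 33 bases from the H3.1 gene AT5G65360. *MGH3* (AT1G19890), the H3 known from male gametes, had 0 and 5.76 RPKM in Col × L*er* and 8.50, 1.23 and 2.14 RPKM in L*er* × Col. AT1G13370 had 0 and 1.51 RPKM in Col × L*er* and 1.39, 2.81 and 0.703 RPKM in L*er* × Col, and AT5G12910 had 0 and 2.56 RPKM in Col × L*er* and 19.1, 0 and 1.42 RPKM in L*er* × Col. *MGH3* and AT5G12910 were highest in replicate 1 of L*er* × Col and AT1G13370 in replicate 2 of it, all 3 were at 0 in replicate 2 of Col × L*er*, and their crosses overlapped. CENH3, from *HTR12* (AT1G01370), had 28.8 and 39.7 RPKM in Col × L*er* and 15.6, 7.04 and 41.6 RPKM in L*er* × Col. Its highest value was in replicate 3 of L*er* × Col and its lowest in replicate 2 of the same cross. Among linker histones, AT1G06760 led with 204 and 228 RPKM in Col × L*er* and 99.3, 78.9 and 175 RPKM in L*er* × Col, without overlap, and the stress-inducible H1 variant *HIS1-3* (AT2G18050) had 20.3 and 14.6 RPKM in Col × L*er* and 21.6, 5.57 and 14.1 RPKM in L*er* × Col, with overlap.

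The design compares the 2 directions of the cross. Higher values in Col × L*er* prevailed among histone genes, without any of them passing the test. With 35 of the 50 members lowest in replicate 2 of L*er* × Col, the members share differences between libraries. They are not independent replicates of a cross. Between the libraries numbered 3, the members' median log2 difference was 0.09, against 0.12 for all genes tested. For 21 of the 49 tested members both Col × L*er* values were above all L*er* × Col values, a pattern held by 6.17% of all genes tested, and for no member were all L*er* × Col values above both Col × L*er* values (1.92% of all genes tested). Among the 4745 genes with at least 10 RPKM in every library the share of the first pattern was 10.2%, and 19 of the 39 members at this level held it. By class, the 21 members were 2 of 3 H1, 3 of 4 replicative H2A, 2 of 2 H2A.X, 2 of 3 H2A.W, 2 of 11 H2B, 4 of 5 H3.1, 1 of 3 H3.3, 2 of 6 other H3 and 3 of 8 H4 genes. No H2A.Z gene and not *HTR12* was among them. The count rests on the level of replicate 3 of L*er* × Col. Without that library 38 members held the pattern (24.1% of all genes), while 23 held it without replicate 1 of that cross (15.1% of all genes). The count was 28 without replicate 2 of Col × L*er* (23.9% of all genes), 25 without its replicate 3 (14.2%), 21 without replicate 2 of L*er* × Col (6.56%) and 16 after quantile normalization (8.46%). The reverse pattern appeared in 3 members without replicate 3 of Col × L*er* (5118 of all 25579 genes) and in 2 after quantile normalization (6.47%).

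On the log2(RPKM + 1) scale, which understates the change of low genes, the median log2 fold change of the members was 0.78, Col × L*er* over L*er* × Col, against 0.10 for all 25579 genes tested, and it was positive for 44 of 49 members and 54.8% of all genes. The gap was smaller among the 14810 genes with at least 1 RPKM in every library. Their median was 0.37 with 73.2% positive, beside 0.83 with 43 of 45 positive for the members at this level. Leaving out replicate 1 of L*er* × Col gave a members' median of 0.77 with 44 of 49 positive, beside a median of 0.44 for all genes with 77.9% positive. The medians were 1.31 for H2A.W, 1.11 for replicative H2A, 1.03 for H2A.X, 0.95 for H1, 0.95 for H3.3, 0.68 for H2A.Z, 0.63 for H4, 0.55 for H3.1, 0.46 for H2B and 0.11 for other H3. After quantile normalization the members' median was 0.35 with 35 of 49 positive, beside 0.02 for all genes. The log2 differences between the crosses in the class sums of H2B and H3.1 were then 0.003 and 0.009, from 0.45 and 0.47 before. Before normalization the crosses overlapped in both sums, and class sums carry no test. No member passed the test of limma with Benjamini-Hochberg adjustment over all genes tested. It called 1 gene higher in Col × L*er* and 1 lower (0.00391% each). At an unadjusted p under 0.05 there were 4 members, all higher in Col × L*er*, and 266 genes in all.

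These 4 members were *HTA2*, AT1G75600, *HTA7* and AT4G40030. The SEs of both fits follow mean level rather than the spread of each gene. Between the crosses they were 0.743 for AT3G53650 (40.8 to 68.1 RPKM) and 0.740 for *HTA8* (26.7 to 169 RPKM). The p-values thus do not measure the spread of a single gene. *HTA2*, a replicative H2A gene, had a log2 fold change of 2.12 (SE 0.74, limma adjusted p = 1.00). For AT1G75600, the H3.3-type gene, it was 1.72 (SE 0.75, limma adjusted p = 1.00), and for the H2A.W gene *HTA7* 1.52 (SE 0.74, limma adjusted p = 1.00). The H3.3 gene AT4G40030 reached 1.45 (SE 0.74, limma adjusted p = 1.00). Without replicate 3 of L*er* × Col, *HTA2* (log2 fold change 2.37, limma adjusted p = 0.015) and AT1G75600 (2.44, limma adjusted p = 0.021) passed the test, as the only members to do so under any setting tried. Under the other settings their adjusted p was 0.55 to 1.00 for *HTA2* and 0.91 to 1.00 for AT1G75600. The lowest log2 fold changes were −0.95 (SE 1.3) for AT5G12910, −0.68 (SE 0.87) for AT5G02570 and −0.65 (SE 1.26) for AT1G13370, each within its SE. Of these, AT5G12910 turned to 0.28 without replicate 1 of L*er* × Col, and AT5G02570 and AT1G13370 to 0.52 and 0.0086 without replicate 2 of Col × L*er*.

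**Figure D3:**
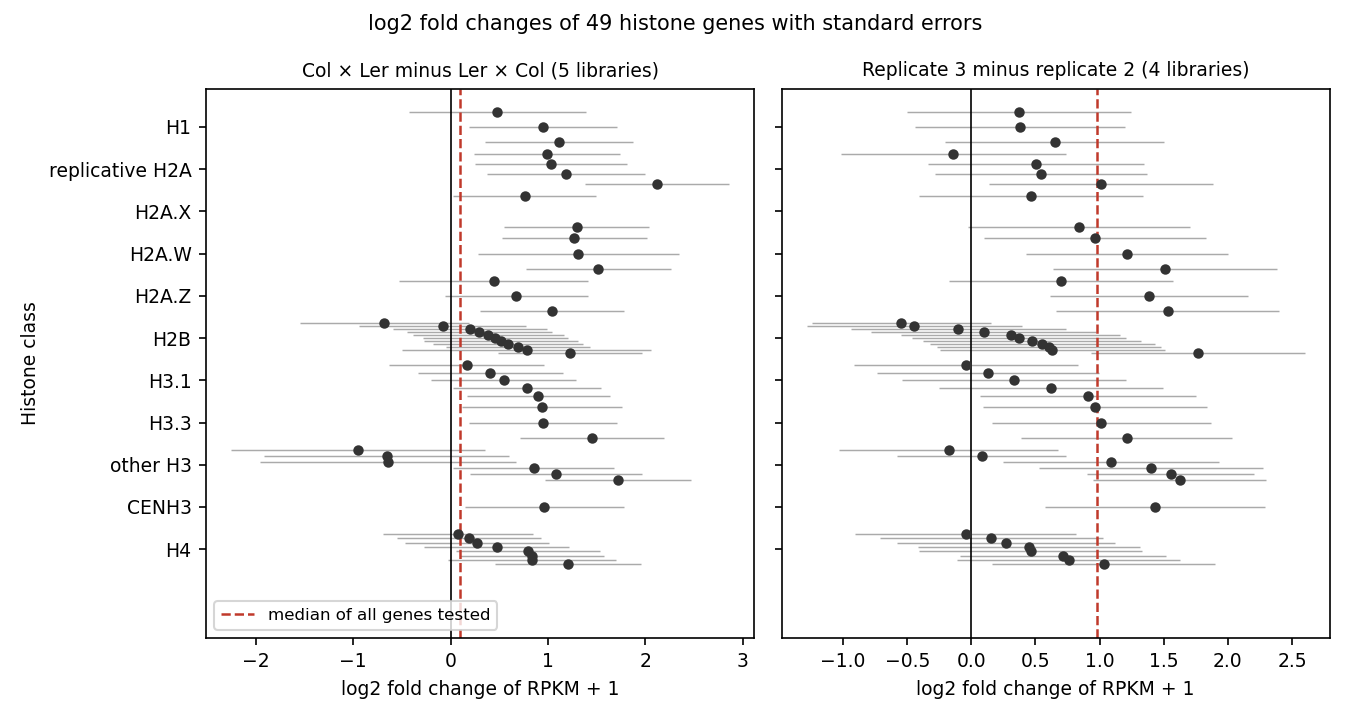
log2 fold change of each of 49 histone genes by class, with standard errors from limma (horizontal lines), between the crosses (left) and between libraries numbered 3 and 2 (right). The standard errors follow the variance trend with mean level and not the spread of each gene. The dashed red line marks the median of all genes tested, 0.10 on the left and 0.98 on the right, and most members lie right of it on the left panel and left of it on the right panel.

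Libraries numbered 3 and 2 were then compared within the crosses, to see how histone genes vary between libraries of the same cross. Replicate 1 of L*er* × Col was left out, since no Col × L*er* library has its number. No label states that libraries of the same number share a preparation. Most genes of the table, and most histone genes, had higher values in the libraries numbered 3. The median log2 fold change was 0.60 for the members and 0.98 for all genes tested, with 42 of 49 members positive and 88.4% of all genes. limma called 5.79% of all genes higher and 0.227% lower in replicate 3, and 0 of the 49 members in either direction. The fit left 1 residual degree of freedom, so its calls rest on variance shared between genes. They fell to 0 with no filter and without the cross term. At an unadjusted p under 0.05 there were 3 members, all higher in replicate 3, and 6401 genes in all. These were AT5G02570 (log2 fold change 1.77, SE 0.83, limma adjusted p = 0.17), *MGH3* (1.62, SE 0.68, limma adjusted p = 0.12) and AT5G12910 (1.55, SE 0.65, limma adjusted p = 0.12). After quantile normalization the median of all genes was 0.012 and that of the members 0.14, so the order of these medians turned, and limma called 192 genes higher and 316 lower in replicate 3. No member was called there either, and 5 members higher and 2 lower had an unadjusted p under 0.05.

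The difference between replicates 3 and 2 was not alike in the crosses. In L*er* × Col, replicate 3 exceeded replicate 2 for 45 of the 49 members, with a median log2 difference of 1.14, against 1.26 for all genes tested. In Col × L*er* it did so for 26 of the 49 members, with a median of 0.04, against 0.73 for all genes tested. The classes ranged in L*er* × Col from medians of 0.56 for H3.1 and 0.84 for H4 to 1.89 for H3.3, 2.12 for H2A.Z, 2.32 for H2A.W and 2.41 for *HTR12*. Between the crosses within a number, the members' median difference (Col × L*er* minus L*er* × Col) was 0.09 in the libraries numbered 3 and 1.24 in those numbered 2, where it was 0.12 and 0.66 for all genes. With 1 library on each side, these differences have no replicate check.

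**Figure D4:**
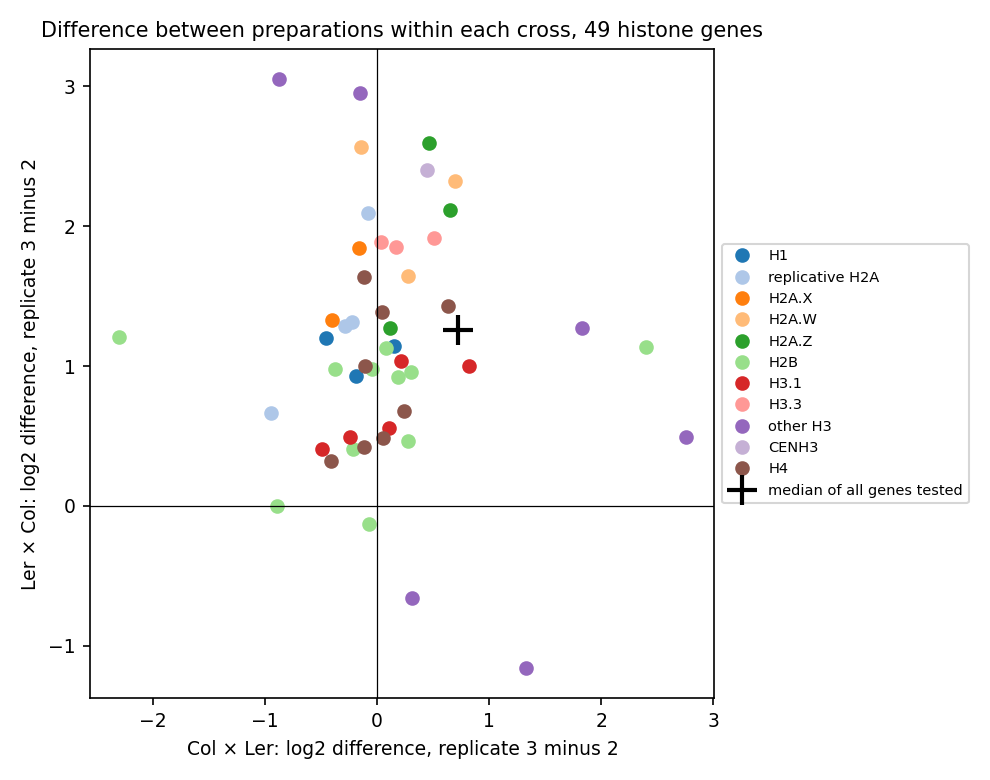
log2 difference between replicates 3 and 2 within Col × L*er* (x axis) and within L*er* × Col (y axis), on log2(RPKM + 1), for 49 histone genes coloured by class, 1 point per gene. Most points lie above 0 on the y axis and around 0 on the x axis, and the black cross marks the medians of all genes tested, 0.73 and 1.26.

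Ratios between class sums do not depend on the scaling of a library as a whole. The ratio of summed H3.1 to summed H3.3 was 0.821 and 0.789 in Col × L*er*, and 1.37, 1.62 and 0.756 in L*er* × Col. The summed level of H3.3 was above that of H3.1 in 3 libraries, both of Col × L*er* among them, and below it in replicates 1 and 2 of L*er* × Col, so the crosses overlapped. The ratio of replicative H2A to H2A.Z was 1.26 and 0.670 in Col × L*er*, and 0.463, 0.822 and 0.487 in L*er* × Col. In both crosses it was lower in the library numbered 3 than in that numbered 2, and it was lowest in replicate 1 of L*er* × Col. The ratio of replicative H2A to H2A.W was 2.23 to 4.35 and that to H2A.X 1.91 to 3.74, with overlap of the crosses. Core histones are assembled in equal number in the octamer, and the ratio of H4 to the sum of H3.1 and H3.3 was 1.01 to 1.37 in the 5 libraries. That of H2B to all H2A was 0.570 and 0.452 in Col × L*er*, and 0.644, 1.14 and 0.468 in L*er* × Col. These are ratios of RNA in nuclei and not of protein.

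**Figure D5:**
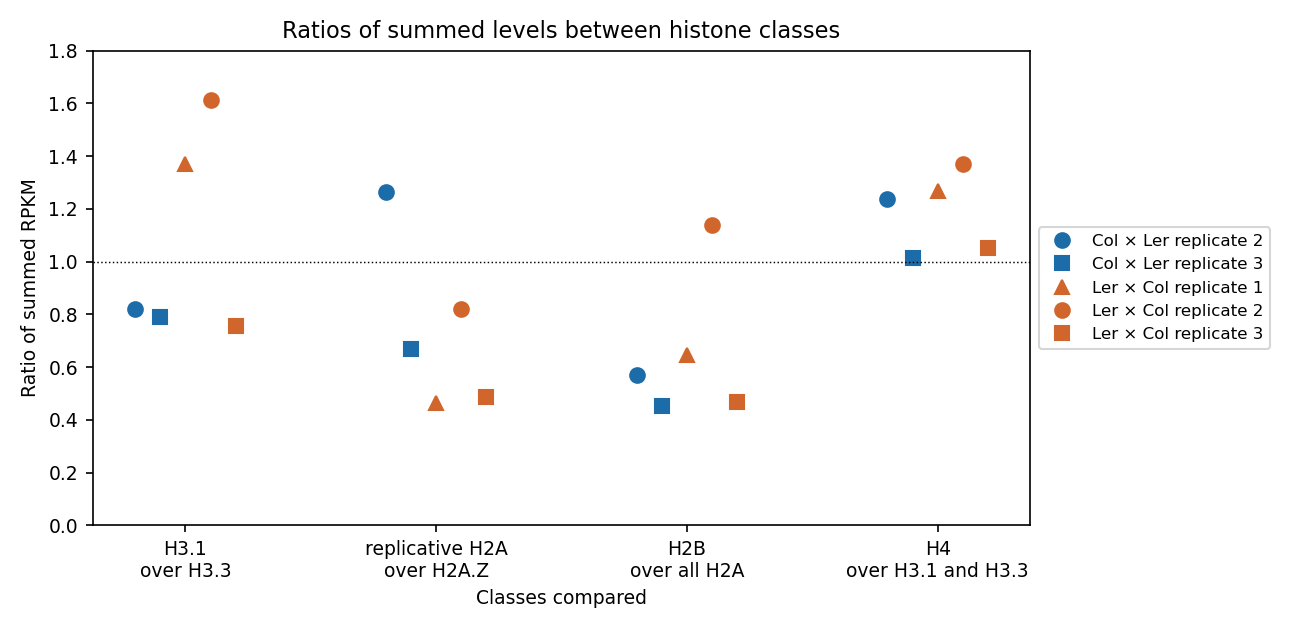
Ratio of summed RPKM between histone classes (y axis, linear from 0) in the 5 libraries, with Col × L*er* in blue and L*er* × Col in orange. For H3.1 over H3.3, replicates 1 and 2 of L*er* × Col lie at 1.37 and 1.62 and the other 3 libraries between 0.756 and 0.821.

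Members were also described by gene structure and promoter motif. The 23 genes without introns summed to 2673 and 2597 RPKM in Col × L*er* and to 1627, 1647 and 2508 RPKM in L*er* × Col. The 27 genes with introns summed to 4197 and 4590 RPKM in Col × L*er* and to 2028, 1398 and 4514 RPKM in L*er* × Col. The median log2 fold change between the crosses was 0.47 for the former and 0.98 for the latter, and between replicates 3 and 2 it was 0.33 and 0.90, but gene structure runs along with class and cannot be told apart from it here. The 10 genes with the octamer had a median log2 fold change between the crosses of 0.95, against 0.76 for the 39 tested members without it, and 0.58 against 0.60 between replicates 3 and 2. Their median level was 143 RPKM, against 64.1 RPKM for the 40 members without the octamer. Between the 12 genes with the hexamer and the others these cross medians were 0.43 and 0.85. Of these 12 genes, 8 were H2B genes, whose class median was 0.46, so motif cannot be told apart from class either.

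Genes that act on histones were described from lists of chaperones and remodellers (23 genes) and of S-phase genes (13 genes), all of which had at least 1 RPKM in every library. Of the chaperones and remodellers, 0 of 23 were called by limma in either comparison. The highest was *NAP1;2*, which binds H2A and H2B, with 201 and 194 RPKM in Col × L*er* and 94.8, 195 and 281 RPKM in L*er* × Col, with overlap. The H2A.Z-depositing SWR1 complex was represented by *PIE1*, *ARP6* and *SWC6*, named after their values were seen. *PIE1* had 8.35 and 13.3 RPKM in Col × L*er* and 16.4, 6.09 and 12.0 RPKM in L*er* × Col, with overlap. *ARP6* was higher in both Col × L*er* libraries, at 31.7 and 33.6 RPKM against 11.3, 9.21 and 25.7 RPKM. So was *SWC6*, at 48.4 and 61.1 RPKM against 16.1, 18.3 and 47.8 RPKM, the last just under 48.4 RPKM. Of the list, *ARP6* and *SWC6* were the only genes with that pattern (2 of 23, 6.17% of all genes). *SPT16* of the FACT complex had the reverse one, with 20.55 and 25.15 RPKM in Col × L*er* and 53.5, 33.9 and 26.8 RPKM in L*er* × Col (1 of 23, 1.92% of all genes). Of the S-phase genes, 0 of 13 were called and none separated by cross. The highest was *ICU2*, the catalytic subunit of DNA polymerase alpha, with 77.6 and 21.6 RPKM in Col × L*er* and 35.4, 156 and 32.4 RPKM in L*er* × Col. Its highest values were in the libraries numbered 2. Summed over the S-phase list, levels were 349 and 323 RPKM in Col × L*er* and 256, 273 and 364 RPKM in L*er* × Col, and over the chaperones 882 and 923 RPKM and 677, 754 and 1033 RPKM. The median log2 fold changes between the crosses were 0.33 and 0.39, beside 0.78 for the histone genes and 0.10 for all genes.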

How the data were processed

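RNA of INTACT-purified endosperm nuclei was poly(A)-selected and sequenced as paired ends by the authors. The submitters' processing notes name TopHat2 2.1 and TAIR10, and the counting tool and the use of strand are not given in the sources used here. The authors deposited 1 table of RPKM values per gene and library, with replicates kept apart, and 0 of its columns lacked a sample. Libraries are numbered as in the columns and descriptions, where the Col × L*er* titles have 1 and 2 instead. The methods describe biological replicates.

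Because RPKM values are not counts, limma 3.58.1 in R 4.3.3 was run on log2(RPKM + 1) with a variance trend, for the 25579 genes with at least 1 RPKM in at least 2 libraries, at a Benjamini-Hochberg adjusted p under 0.05. The crosses were compared over 5 libraries, and replicates 3 and 2 over 4 libraries with a cross term. The function was tested on simulated data. Class sums and ratios carry no test. The summed level of the embryo markers is not reported here. Depth was estimated from tRNA genes, of which 96.8 to 98.0% fell on whole reads within 0.05 reads. Sequences and gene structures come from RefSeq's TAIR10.1, which matched all 50 members. Members without a symbol there are given by identifier.

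The members and gene lists were chosen with earlier results of these data known. Values per library are given for the highest member of each class, for *HTR12*, *MGH3*, *HIS1-3*, *HTA4* and AT1G08170, for members with an unadjusted p under 0.05, and for the 3 largest log2 fold changes in each direction. From the chaperone and S-phase lists the highest gene was named. *ARP6*, *SWC6*, *PIE1* and *SPT16* were named after their values were seen. As alternatives, the pseudocount and filter were changed, values were quantile-normalized, a block on the replicate number was added, the trend was dropped and each library was left out in turn. Python 3.11.15 was used.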

Additional observations from a re-analysis of the deposited data

Results flagged for a closer look

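In 4 classes the summed level moved in opposite directions from replicate 2 to replicate 3 in the crosses. On the log2 scale, the sum of replicative H2A differed by 1.33 in L*er* × Col and by −0.35 in Col × L*er*, that of H2A.X by 1.67 and −0.25, that of H2B by 0.50 and −0.22, and that of the other H3 genes by 1.77 and −0.09. Each difference rests on 1 pair of libraries, and the difference between the crosses was not tested.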

How the results depend on the processing

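The members' median log2 fold change between the crosses was positive under all alternatives, from 0.35 after quantile normalization to 1.00 with a replicate block by title numbers, and 0.46 to 1.00 without each library. Calls over all genes, 2 as reported, were 7 and 6 with pseudocounts of 0.1 and 5, 6 with no filter, 6 with at least 1 RPKM in every library, 0 after quantile normalization, 0 without the variance trend, and 0 to 86 without each library. Where 1 library was left in Col × L*er*, it was assumed to vary like the others. A replicate block by title numbers gave 2 calls. A block by column numbers gave 86 calls, and 76 in replicates 2 and 3 only (chosen after seeing the data), with 0 members called. The differences between replicates 3 and 2 were weakly correlated between the crosses across genes (r = 0.29). The libraries numbered 3 were close (r = 0.95). Those numbered 2 (r = 0.857) were no closer than libraries of different numbers within a cross (r = 0.855 and 0.860). Only 2 numbers are shared and no label states what they mean. The cause of these changes in calls was not tested. Calls between replicates 3 and 2, 1538 as reported, were 0 with no filter, 508 after quantile normalization (192 higher and 316 lower in replicate 3), 0 without the cross term and 2649 without the variance trend. Leaving out a library of this fit left no residual degrees of freedom, so no test was made.

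Members higher in both Col × L*er* libraries numbered 21 to 38 without each library, beside 6.56 to 24.1% of all genes. The log2 difference in the ratio of H4 to H3.1 and H3.3 was −0.13, −0.34 without the highest gene of each class and −0.27 to 0.019 without each library. The sign also turned without a library for the ratios of replicative H2A to H2A.W (−0.50 to 0.24) and to H2A.X (−0.087 to 0.40). Of the 21 named members, 8 had a log2 fold change between the crosses that reversed when a library was left out, over which it ran from −0.37 to 1.93 for AT1G08170, −0.25 to 0.58 for AT1G09200 (also −0.25 after quantile normalization), −1.32 to 0.0086 for AT1G13370, −2.02 to 0.74 for *MGH3*, −0.018 to 0.87 for *HIS1-3*, −0.055 to 1.00 for *HTA11*, −1.88 to 0.52 for AT5G02570 and −1.88 to 0.28 for AT5G12910 (also 0.28 with the replicate block, and in replicates 2 and 3 only). Between replicates 3 and 2 it reversed for AT1G08170 (0.069 with a pseudocount of 0.1), AT1G13370 (−0.037 with a pseudocount of 5, −1.09 after quantile normalization) and *HIS1-3* (−0.57 after quantile normalization). RPKM keeps no read counts, so depth limits the low members most.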
